A study of Mus musculus with 4 samples.

Results

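The egg coat genes Zp1, Zp2 and Zp3 and the oocyte secreted protein genes Oosp1, Oosp2 and Oosp3 were followed in denuded mouse oocytes, that is, oocytes stripped of their cumulus cells. The members were chosen by name, and all 6 were found among the 26631 rows of the expression table. RNA was sequenced from oocytes cultured with HDACi 4b, a compound that blocks 2 histone deacetylases, HDAC1 and HDAC3 (2 libraries, here HDACi 4b replicates 1 and 2), and from oocytes cultured with DMSO, its solvent (2 libraries, control replicates 1 and 2). The donors in both groups were C57BL/6 wild type animals of postnatal day 24, and each library was made from pooled oocytes, so that a lower level from fewer oocytes holding a transcript cannot be told apart from less RNA in each. The cell type label reads denuded oocytes, although the extraction note of the same samples speaks of ovaries. Whether replicates of a group were separate cultures is not stated, so a p-value here reflects the spread between libraries, which may be technical.

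The zona pellucida is the glycoprotein coat around the mammalian egg. In the mouse it is built from ZP1, ZP2 and ZP3, which the growing oocyte makes and secretes: ZP2 and ZP3 form the filaments, ZP1 cross-links them, and ZP2 carries the region that sperm bind and that is cleaved after fertilization to block further sperm. FIGLA, an oocyte transcription factor, drives the Zp genes together through E-boxes, short DNA elements, close to their start sites. The OOSP proteins are small secreted proteins made by oocytes and related to the placental protein PLAC1, and much less is known of what they do.

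Zp3 lies on chromosome 5 (135980099 to 135988624, plus strand, 8 merged exons) and Zp2 on chromosome 7 (120126772 to 120145291, minus strand, 18 merged exons), both as GENCODE M21 gives them on GRCm38. The other members share chromosome 19. Zp1 spans 10914287 to 10920632 (minus strand, 12 merged exons), and 726647 bases further on the Oosp genes form a cluster of 64596 bases. In it Oosp2 (11647279 to 11660559, minus strand, 4 merged exons) and Oosp1 (11667460 to 11691150, minus strand, 5 merged exons) are followed by Oosp3 (11697055 to 11711874, plus strand, 6 merged exons). No other protein coding gene is annotated within the cluster. A processed pseudogene on the opposite strand, Gm19224, shares 57 exonic bases with Oosp3, so a few reads counted to Oosp3 could belong to it. The exons of the other members were free of annotated overlaps.

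The sequences just before the start sites are shown because the E-box is the element known to couple the Zp genes. RNA levels were measured here, and promoter activity was not. Of the 6 members, 3 matched the RefSeq promoter table of GRCm38.p6, namely Zp3, Oosp1 and Oosp2. The 250 bases before each RefSeq start, which can differ from the GENCODE gene end given above, are shown 5′ to 3′ on the strand of the gene, in lower case with each E-box match (CANNTG, which reads the same on both strands) in capitals.
Zp3 (chr5:135979855-135980104, plus strand): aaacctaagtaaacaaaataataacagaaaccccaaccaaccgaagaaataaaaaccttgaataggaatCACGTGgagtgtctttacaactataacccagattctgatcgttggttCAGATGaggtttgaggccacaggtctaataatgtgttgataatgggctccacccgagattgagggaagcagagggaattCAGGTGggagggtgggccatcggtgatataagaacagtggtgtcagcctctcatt
Oosp1 (chr19:11691052-11691301, minus strand): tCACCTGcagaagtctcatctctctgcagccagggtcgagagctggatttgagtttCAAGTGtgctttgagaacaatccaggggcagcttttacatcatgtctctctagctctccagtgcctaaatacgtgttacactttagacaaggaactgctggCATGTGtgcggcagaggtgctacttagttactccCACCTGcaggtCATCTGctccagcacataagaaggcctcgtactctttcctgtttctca
Oosp2 (chr19:11660560-11660809, minus strand): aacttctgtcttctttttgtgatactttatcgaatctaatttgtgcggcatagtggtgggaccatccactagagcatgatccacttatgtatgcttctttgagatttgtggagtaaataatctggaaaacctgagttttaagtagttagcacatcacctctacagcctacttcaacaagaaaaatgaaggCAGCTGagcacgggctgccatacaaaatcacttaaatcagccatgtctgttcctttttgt
Zp3 held 3 E-box matches, Oosp1 held 5 and Oosp2 held 1. Since 66.2% of the 32851 promoters in the table hold CANNTG in the same window, a match of this kind is common. The form CAGGTG, or CACCTG on the other strand, is one of the CANNTG matches and was present in 17.2% of all promoters. It began 55 bases before the RefSeq start of Zp3 and 249 and 59 bases before that of Oosp1, and it was not among the letters of this window in Oosp2. The Oosp1 window, from 11691052, reaches inside the GENCODE gene, which ends at 11691150, and the match at 59 bases lies within that gene. The letters TATAA, searched on both strands and present in 22.8% of promoters, began 29 and 160 bases before the start of Zp3 only among the 3. These matches describe the sequence and do not show that a factor binds there.

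The zona and Oosp transcripts were among the most abundant of the oocyte, with Zp3 ranked 17 to 20 of all rows in every library. Levels are in RPKM (reads scaled to exon length and to library size), which allows genes of different length to be compared, and are given as deposited unless said otherwise. Together the 6 genes took 0.941% (95% Wilson interval 0.936% to 0.946%) and 0.912% (0.907% to 0.917%) of all reads in HDACi 4b replicates 1 and 2, against 1.06% (1.05% to 1.06%) and 0.837% (0.832% to 0.841%) in control replicates 1 and 2. These intervals cover counting error only. The controls were thus the lowest and the highest library of the series by this share, and the HDACi 4b libraries lay between them.

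The order of the levels was Zp3, Oosp1, Oosp2, Zp2, Oosp3 and Zp1, and it was the same in all 4 libraries. No neighbours in this order overlapped. The closest were Zp3 and Oosp1, where the lowest Zp3 value of 2555 RPKM was 1.14 times the highest Oosp1 value of 2233 RPKM. The widest step was that from Zp2 to Oosp3, where the lowest Zp2 value of 593 RPKM was 1.81 times the highest Oosp3 value of 327 RPKM. The read counts behind these levels ran from 3012 for Oosp3 in control replicate 2 to 73394 for Zp3 in control replicate 1. Counting error alone was therefore 0.369% to 1.82% of a value. Replicates of a group differed by ratios of 1.02 (Zp2 with HDACi 4b) to 1.404 (Oosp1 in control) as deposited.

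**Figure D1:**
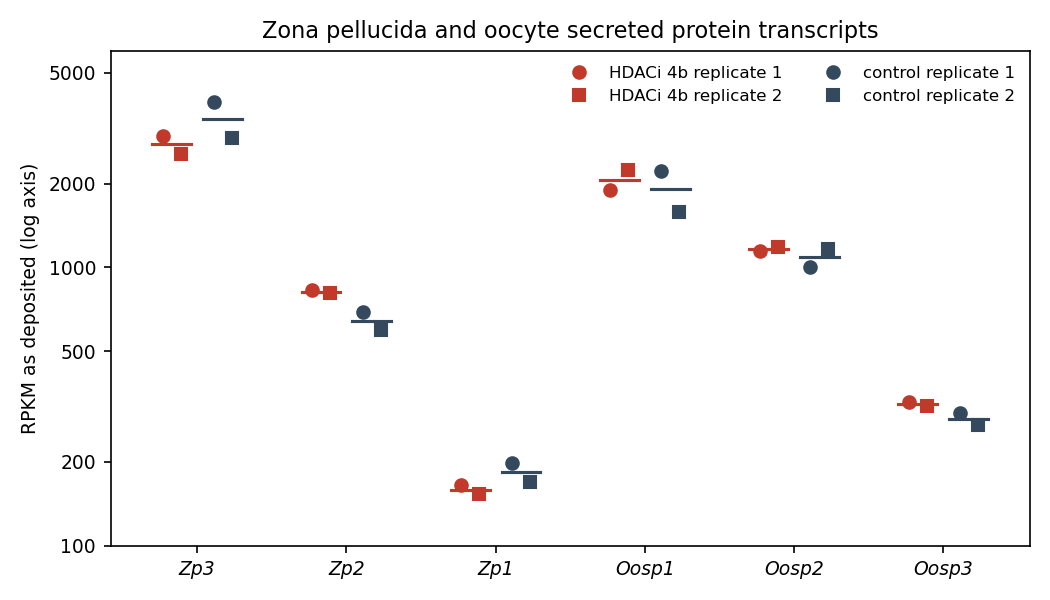
RPKM as deposited (vertical log axis) of the 3 zona pellucida and 3 Oosp genes. Circles and squares are replicates 1 and 2, red is HDACi 4b, dark blue is control, and each bar is the mean of its group (n = 2). The order of the 6 genes was the same in every library. Both HDACi 4b values were above both control values for Zp2 and Oosp3 (6.6% of tested genes) and below them for Zp1 (16.8%).

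The comparison of HDACi 4b with control asks whether transcripts of the denuded oocytes differed after culture with the inhibitor. None of the 6 transcripts passed the test. In limma across 9461 genes, 0 genes were higher with HDACi 4b and 0 were lower (0% in either direction) once p was adjusted by Benjamini-Hochberg and held to 0.05. At an unadjusted p under 0.05, 145 genes were higher (1.53%) and 117 were lower (1.24%), together 2.77%, and none of them was a zona or Oosp gene. When the reads of 7961 genes were modelled by limma-voom, the counts were 0 and 0, and 98 and 93 before adjustment. Fold changes below are on the log2(RPKM + 0.1) scale after scaling of the libraries, with HDACi 4b over control.

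Zp2, the zona protein that sperm bind, was at 826 and 807 RPKM in HDACi 4b replicates 1 and 2, against 693 and 593 RPKM in control replicates 1 and 2. Both HDACi 4b values lay above both control values, by deposited RPKM and after scaling (797 and 887 against 764 and 508 scaled RPKM). Zp2 averaged 817 ± 13.5 RPKM in HDACi 4b oocytes and 643 ± 70.2 RPKM in control oocytes (SD, n = 2 each). The log2 fold change was 0.43 (SE 0.32), or 1.35-fold (95% interval 0.794 to 2.29), and limma's adjusted p was 1.0. Only 5 of the 537 genes averaging 100 RPKM or more had a higher log2 fold change, and the middle 90% of these genes ran from -0.19 to 0.35. Without control replicate 1 the value was 0.73, and without control replicate 2 it was 0.14, so the size depended on which control was kept.

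Zp3, the other filament protein and the most abundant member, was at 2974 and 2555 RPKM in HDACi 4b oocytes, against 3922 and 2914 RPKM in control oocytes. Control replicate 1 was the highest library and stood apart from the other 3, and the groups overlapped, with means of 2765 ± 296 RPKM in HDACi 4b oocytes and 3418 ± 713 RPKM in control oocytes (SD, n = 2 each). The log2 fold change was -0.21 (SE 0.44), a fold of 0.864 (95% interval 0.417 to 1.79; limma's adjusted p = 1.0). Of the 537 abundant genes, 23 had a lower log2 fold change. Without control replicate 1 the value changed sign to 0.19, and without control replicate 2 it was -0.61.

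Zp1, which cross-links the filaments, was the least abundant zona transcript, at 165 and 153 RPKM in HDACi 4b oocytes, against 198 and 170 RPKM in control oocytes. Both HDACi 4b values were below both controls as deposited, but the groups overlapped after scaling. The log2 fold change was -0.12 (SE 0.26, limma's adjusted p = 1.0), and it was 0.17 without control replicate 1 and -0.41 without control replicate 2.

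Oosp1 was the most abundant of the Oosp genes, at 1901 and 2233 RPKM in HDACi 4b oocytes, against 2227 and 1586 RPKM in control oocytes. Control replicate 2 was the low library and the groups overlapped. The log2 fold change of 0.22 (SE 0.43) became -0.21 without control replicate 2 and 0.64 without control replicate 1.

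Oosp2 was at 1148 and 1182 RPKM in HDACi 4b oocytes, against 1003 and 1168 RPKM in control oocytes. The groups overlapped as deposited and did not overlap after scaling (1108 and 1299 against 1105 and 999.9 scaled RPKM), where HDACi 4b replicate 1 and control replicate 1 were nearly level. Its log2 fold change was 0.19 (SE 0.31), and 0.12 without control replicate 2. Oosp3 was at 327 and 318 RPKM in HDACi 4b oocytes, against 299 and 272 RPKM in control oocytes. Here the groups were apart as deposited and overlapped after scaling. The log2 fold change of Oosp3 was 0.26 (SE 0.27), and without control replicate 2 it was 0.01. The adjusted p of limma was 1.0 for all 3 Oosp genes.

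Counted over the members, 4 of 6 log2 fold changes were positive with a median of 0.20, against a median of 0.08 over the 537 abundant genes and 0.01 over all 9461. By scaled RPKM, 2 members (Zp2 and Oosp2) had HDACi 4b values above both controls, a pattern shown by 14.4% of tested genes, and none had them below, shown by 12.9%. By deposited RPKM, Zp2 and Oosp3 were above (6.6% of genes) and Zp1 was below (16.8%). Of the 6 members, only Zp2 was apart in the same direction on both scales. The share of all tested genes that did so was not counted, so this is not shown to be particular to Zp2.

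**Figure D2:**
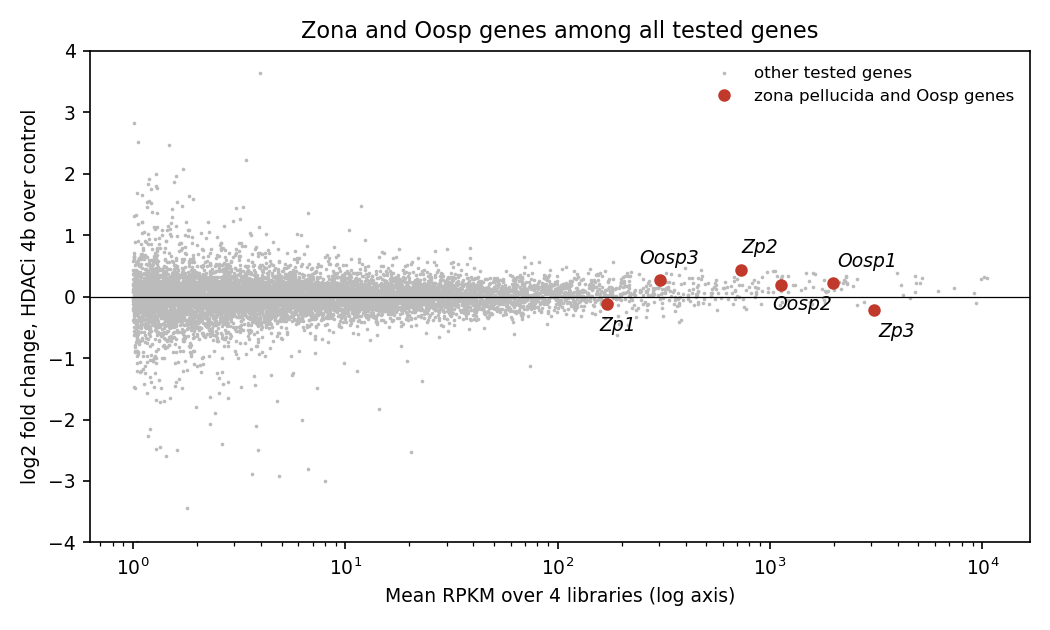
log2 fold change of HDACi 4b over control (vertical axis) against mean RPKM over the 4 libraries (horizontal log axis) for the 9461 tested genes, with the 6 members in red. Zp2 lies at the upper edge and Zp3 near the lower edge of the genes of similar abundance, and none of the 6 passed the test.

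The interval of the fold change lay within 2-fold in either direction for 3 of the 6 members (Zp1, Oosp2 and Oosp3), against 81.2% of all tested genes. For Zp2, Zp3 and Oosp1 a change of more than 2-fold was inside the interval. The width depended on how the libraries were scaled. The factors for all genes set the control libraries apart (0.907 for replicate 1 and 1.17 for replicate 2), while the abundant genes of these libraries were nearly level as deposited: their median log2 ratio of replicate 1 over replicate 2 was 0.05 as deposited and 0.42 after scaling. In the HDACi 4b libraries it was 0.01 and -0.18. With factors taken from the abundant genes alone, an alternative chosen after the data were seen, the SE of the members was 0.16 to 0.19 in place of 0.26 to 0.44 and all 6 intervals were within 2-fold. The deposited values without scaling also placed all 6 within 2-fold. Without scaling the log2 fold change was 0.11 for Oosp2, 0.13 for Oosp1 and -0.21 for Zp1, against 0.19, 0.22 and -0.12 with scaling on all genes. On the abundant-gene scale Zp2 had a log2 fold change of 0.37 (95% interval 0.02 to 0.72, unadjusted p = 0.0389 and adjusted p = 1.0 in limma). Of the 9461 genes tested on that scale, 74 were higher and 125 were lower at an unadjusted p under 0.05 in limma. Without scaling the log2 fold change of Zp2 was 0.35 (95% interval -0.02 to 0.72).

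**Figure D3:**
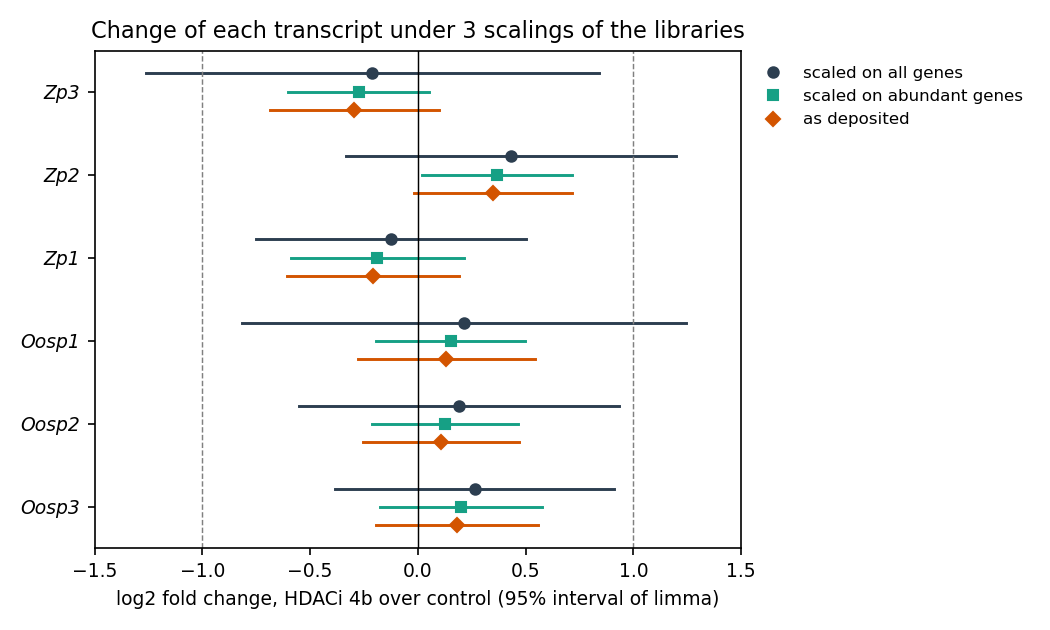
log2 fold change of HDACi 4b over control (horizontal axis) with its 95% interval from limma for each member, under scaling on all genes (dark blue circles), on genes averaging 100 RPKM or more (green squares) and without scaling (orange diamonds). Dashed lines mark 2-fold. Every estimate kept its sign, and the intervals were wider under scaling on all genes, where those of Zp3, Zp2 and Oosp1 crossed a dashed line.

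A ratio of genes within a library does not depend on the scaling. The ratio of Zp2 to Zp3, chosen with earlier values of both genes known, was 0.278 and 0.316 in HDACi 4b replicates 1 and 2, against 0.177 and 0.204 in control replicates 1 and 2. The groups did not overlap, as was so for 26.8% of the 143916 pairs of genes averaging 100 RPKM or more. The mean log2 ratio was -1.76 ± 0.13 in HDACi 4b oocytes and -2.40 ± 0.15 in control oocytes (SD, n = 2 each). This was a difference of 0.64 or 1.56-fold. The difference was 0.54 to 0.75 when any 1 library was left out. An exact permutation test gave a two-sided p of 0.33, the smallest that 2 against 2 libraries allow, so the design could not pass a threshold of 0.05.

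Zp2 to Zp1 showed a similar shift, with ratios of 5.01 and 5.28 in HDACi 4b oocytes and 3.51 and 3.49 in control oocytes. The log2 difference was 0.56 (exact permutation p = 0.33, n = 2 each). Groups were likewise apart for 26.8% of the pairs of genes averaging 100 RPKM or more. Zp3 to Zp1 was at 18.0 and 16.7 in HDACi 4b oocytes, against 19.9 and 17.2 in control oocytes, and overlapped. Of the summed zona RPKM, Zp2 made up 20.8% and 23.0% in HDACi 4b oocytes against 14.4% and 16.1% in control oocytes, Zp3 made up 75.0% and 72.7% against 81.5% and 79.2%, and Zp1 stayed between 4.11% and 4.62% in every library. Both HDACi 4b libraries thus held more Zp2 and less Zp3 among the zona transcripts than both controls. These shares restate the ratios, since a larger Zp2 share leaves less for Zp3. The level of Zp3 itself overlapped between the groups.

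**Figure D4:**
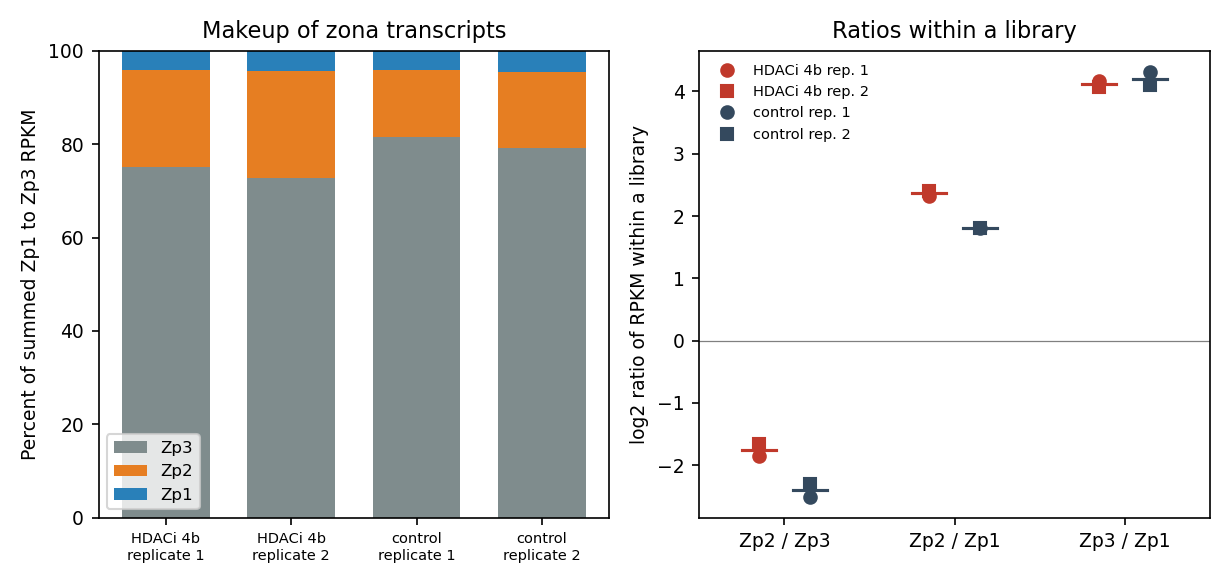
Left, percent of the summed RPKM of Zp1, Zp2 and Zp3 held by each gene in each library. Right, log2 ratio of RPKM within a library for the zona gene pairs, with replicates 1 and 2 as circles and squares and the group mean as a bar. Both HDACi 4b libraries had a larger Zp2 share (20.8% and 23.0%) than both control libraries (14.4% and 16.1%), and the Zp3 to Zp1 ratio overlapped between the groups.

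Of the 15 ratios among the 6 members, 8 did not overlap between the groups, against 26.8% of the 143916 pairs of genes averaging 100 RPKM or more. The 15 ratios share genes and are not independent. All 3 ratios among the Oosp genes overlapped between the groups, with log2 differences of 0.03 for Oosp1 to Oosp2, -0.05 for Oosp1 to Oosp3 and -0.07 for Oosp2 to Oosp3. The Oosp1 share of summed Oosp RPKM was 56.3% and 59.8% in HDACi 4b replicates 1 and 2, against 63.1% and 52.4% in control replicates 1 and 2. The Oosp2 share was 34.0% and 31.7% in HDACi 4b replicates 1 and 2, against 28.4% and 38.6% in control replicates 1 and 2. Zp3 and Zp1 were lower relative to Oosp3 in both HDACi 4b libraries than in both controls, by log2 differences of -0.47 and -0.39.

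Likeness of profile was measured as the Euclidean distance between log2 values centred on each gene's mean over the 4 libraries. Zp2 was closest among the members to Oosp3 (0.18), Zp3 was closest to Zp1 (0.19), and Zp2 and Zp3 were the pair furthest apart (0.67). Among 1038 other genes averaging 50 RPKM or more, the closest to Zp2 were Tspyl1 (0.05) and Ssb, the La RNA-binding protein (0.07), and the closest to Zp3 were Exosc3, a subunit of the RNA exosome, and E330021D16Rik (both 0.10). Hax1 and Eif2b1 were closest to Zp1, Nudc-ps1 and Prdx1 to Oosp1, Iqcf5 and AC149586.1 to Oosp2, and Psma1 and Fbxw16 to Oosp3, at distances of 0.02 to 0.06. With 4 libraries many genes have similar profiles, so these distances are a description only.

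None of the genes around the members passed the test either. Of 9 transcription regulators of the zona genes, 6 were tested, with 4 positive and 2 negative log2 fold changes and a median of 0.06. Nobox, an oocyte homeobox factor, was at 56.0 and 50.5 RPKM in HDACi 4b oocytes, against 61.6 and 47.2 RPKM in control oocytes. Figla was at 33.3 and 25.1 RPKM against 24.9 and 28.2 RPKM in control oocytes, with a log2 fold change of 0.21 (SE 0.19). Tcf3, the E protein that pairs with FIGLA, was at 1.78 and 1.56 RPKM against 1.82 and 2.46 RPKM in control oocytes, with a log2 fold change of -0.25 (SE 0.23). Taf4b, a subunit of a gonadal transcription complex, had the smallest p of the list, at 3.67 and 3.31 RPKM against 2.31 and 3.43 RPKM in control oocytes. As deposited, the groups overlapped for Nobox, Figla and Taf4b, while both HDACi 4b values of Tcf3 were below both controls (16.8% of tested genes). After scaling, both HDACi 4b values of Taf4b and, narrowly, of Figla were above both controls (14.4% of tested genes).

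Of 11 genes of zona protein folding, processing and release, 7 were tested, all with intervals within 2-fold and with a median log2 fold change of 0.03. Canx, the calnexin that folds glycoproteins in the endoplasmic reticulum, was the most abundant and had the smallest p, at 142 and 114 RPKM in HDACi 4b oocytes against 106 and 112 RPKM in control oocytes (log2 fold change 0.31, SE 0.21, limma's adjusted p = 1.0). Both HDACi 4b values of Canx were above both controls, a pattern shown by 6.6% of tested genes as deposited. Pdia3, a disulfide isomerase, was at 50.4 and 35.1 RPKM against 37.4 and 48.6 RPKM in control oocytes. Astl, the protease ovastacin that cleaves ZP2 after fertilization, was at 23.7 and 30.02 RPKM against 25.9 and 45.0 RPKM in control oocytes.

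Of 10 other genes with a ZP domain or a PLAC1 fold, 9 were in the table and 3 were tested, with a median log2 fold change of -0.01. Plac1 was at 4.76 and 5.14 RPKM in HDACi 4b oocytes, against 8.82 and 6.75 RPKM in control oocytes. Both HDACi 4b values were below both controls, a pattern shown by 16.8% of tested genes as deposited. The log2 fold change was -0.55 (SE 0.27, limma's adjusted p = 1.0). Tgfbr3, a receptor with a ZP domain, was at 4.56 and 3.84 RPKM against 3.79 and 4.70 RPKM in control oocytes. The 4 other secreted oocyte proteins had 3 positive log2 fold changes with a median of 0.06. Among them, the growth factor Gdf9 was at 743 and 617 RPKM in HDACi 4b oocytes and 815 and 557 RPKM in control oocytes, and Bmp15 was at 485 and 674 RPKM against 497 and 540 RPKM in control oocytes, each overlapping.

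The libraries held 13478189 to 14903547 reads, and 9015 to 10027 rows reached 1 RPKM. All 10 oocyte markers were tested, and their summed level of 4485 to 4720 RPKM in HDACi 4b libraries lay within the 3956 to 4785 RPKM of the control libraries. The sums were 8.21 to 9.37 RPKM in HDACi 4b and 7.99 to 9.92 RPKM in control libraries for 13 granulosa and cumulus markers, 0.712 to 1.30 and 0.840 to 1.24 RPKM for 8 theca and stroma markers, and 2.40 to 2.60 and 2.58 to 2.94 RPKM for 4 endothelial markers. Most of the granulosa and cumulus sum came from Cyp19a1, the aromatase (3.49 and 3.26 RPKM in HDACi 4b libraries, against 3.03 and 3.31 RPKM in control libraries), Nr5a2 (3.26 and 2.38 against 2.27 and 3.52 RPKM) and Kitl (1.87 and 1.76 against 1.44 and 2.33 RPKM). The other 10 markers of that list were at 0.444 RPKM (Fshr) or below in every library, Foxl2 and Inha among them. The sum for 7 macrophage and blood markers was 11.5 to 48.2 RPKM in HDACi 4b libraries and 16.01 to 28.0 RPKM in control libraries, with HDACi 4b replicate 1 the highest and HDACi 4b replicate 2 the lowest. Lyz2, a lysozyme of macrophages, carried most of it, at 29.4 and 6.69 RPKM in HDACi 4b libraries, against 16.7 and 9.42 RPKM in control libraries. Of the 4 tested markers of this list, 3 had a positive log2 fold change, Lyz2 among them, and Cd14 had a negative one. Cd14 was at 1.15 and 1.04 RPKM in HDACi 4b libraries, against 1.98 and 2.501 RPKM in control libraries. Its log2 fold change was -0.88 (SE 0.25, unadjusted p = 0.0112 in limma), and it did not pass after adjustment. The part of these markers in the values of the zona and Oosp genes was not tested.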

How the data were processed

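The authors deposited 1 table of RPKM values for 26631 gene rows, with 1 column per library and 0 columns left unused. Bowtie 0.12.2 and the mm8 build appear in the submitters' processing notes. How reads were counted, and whether by strand, is not given in the sources used here. At the exonic lengths of GENCODE M21 (GRCm38), 22640 rows (85.0%) gave whole reads in all libraries within 0.01 reads, all 6 members among them, so coordinates are those of GRCm38, matched by gene name. The most common value of RPKM times length in a library, taken as 1 read, gave the library totals. Libraries were scaled by the trimmed mean of log ratios of these reads (30% of ratios and 5% of levels trimmed from each end), with factors of 1.04 and 0.91 for HDACi 4b and 0.907 and 1.17 for control replicates 1 and 2. limma 3.58.1 in R 4.3.3 was fitted to log2(scaled RPKM + 0.1) for the 9461 genes averaging 1 RPKM or more, with an intensity trend, no covariate, two-sided tests and Benjamini-Hochberg adjustment. Replicates differed by more than sampling noise (median chi-square on 1 degree of freedom of 3.22 for HDACi 4b and 8.08 for control), so none was a copy.

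Members, lists and the Zp2 to Zp3 ratio were chosen with earlier results of these data known. Named were the 6 members, for each the 2 genes of most similar profile, and from each of the 4 lists of related genes the 2 most abundant members and the one with the smallest p. Marker lists of cell types were given by their sums. Tcf3, Astl and the single markers named (Cyp19a1, Nr5a2, Kitl, Fshr, Foxl2, Inha, Lyz2, Cd14) were added after their values were seen. Alternatives were other scalings, pseudocounts and filters, limma-voom, other variance priors, a block for the replicate number, and omission of each library in turn.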

Additional observations from a re-analysis of the deposited data

How the results depend on the processing

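Zp2, Oosp2 and Oosp3 kept a positive log2 fold change under all 15 alternatives, with ranges of 0.14 to 0.73, 0.08 to 0.30 and 0.01 to 0.51, and the adjusted p of every member stayed above 0.05 (lowest 0.767, for Zp2 without control replicate 1). Leaving out 1 library gave -0.61 to 0.19 for Zp3, -0.41 to 0.17 for Zp1 and -0.21 to 0.64 for Oosp1. Zp3 and Zp1 changed sign without control replicate 1, and Oosp1 without control replicate 2; the cause was not tested. No other alternative changed the sign of a member. Among them, the filters, the variance priors and the replicate block leave the estimate unchanged by construction, and the pseudocounts are small beside these levels. Only the scalings, limma-voom and the omission of libraries could therefore have moved a sign. Zp2 over Zp3 differed by 0.54 to 0.75 on the log2 scale with 1 library left out, by 0.64 under pseudocounts and by 0.64 with the replicate block. The block cannot change this difference in a balanced design, and pseudocounts hardly can at these levels.

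Over all genes, leaving out 1 library gave 0 to 3 higher and 0 to 7 lower genes, the 3 and 7 without HDACi 4b replicate 2, and none was a member. The replicate block gave 0 higher and 1 lower gene. Libraries of the same number deviated together only weakly (correlation of 0.04 over 9461 genes), so the numbers were not taken to pair the libraries. Without scaling, 57 higher and 135 lower genes had an unadjusted p under 0.05, against 145 and 117 with it. Scaling on abundant genes was chosen after seeing the data. With at least 3012 reads per member and library, counting error was at most 1.82% of a value.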
